A study of Mus musculus with 14 samples.

Results

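Broad shared H3K36me3 domains are autosomal intervals of at least 20000 bases that carried trimethylated histone H3 lysine 36 (H3K36me3) in wild-type spermatocytes and were touched by the same mark in wild-type round spermatids. A peak of the spermatocyte list counted as a domain when it was that wide and overlapped a round spermatid peak by at least 1 base. By this rule 1485 of 44358 autosomal spermatocyte peaks were domains (3.35%), and they covered 41.4 Mb, or 17.4% of all bases under the peaks of that list. The domains were chosen by peak width and overlap, so both are given as a description with no test, whereas RNA levels and the peak lists of Setd2KO cells played no part in the choice.

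The study worked with adult mice of strain C57BL/6J, whose testis cells were sorted by flow cytometry on a DNA dye and propidium iodide. Spermatocytes at the pachytene or diplotene stage of meiotic prophase are written PD, and round spermatids, haploid after the meiotic divisions, are written RS. Each cell type came from wild-type mice (WT) and from mice labelled Setd2KO. Each of the 4 groups had 1 H3K36me3 peak list and 2 libraries of polyadenylated RNA, whose values are FPKM, the fragments per kilobase of gene in a megaread. The deleted exons, any Cre driver, the mice per library and whether replicates came from separate mice are not given in the sources used here, so p-values measure the spread between libraries, which may be technical.

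Setd2 is the methyltransferase that adds the last of the methyl groups to H3K36 while travelling with elongating RNA polymerase II, so the mark lies over the bodies of transcribed genes and is usually densest toward their ends. Proteins that read the mark take part in splicing, DNA repair and the silencing of cryptic start sites. In pachytene spermatocytes many genes of meiosis and of the later sperm are transcribed together, and round spermatids go on to build the acrosome and flagellum before their chromatin is packed with protamines.

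The first domain edge lay within 2000 bases of the start site in 56.7% of 573 genes alone under a single domain, as defined below. Promoters are shown for the hosts of the 3 widest domains with an edge within this distance. They were thus picked for a near edge. A host is the gene that shares most bases with the domain. The sequences are RefSeq's for GRCm38.p6 and run 5′ to 3′ on the gene's strand over the 250 bases before the start. Capitals mark matches on either strand to the core of the NRF1 site (CGCATGCG), the cyclic AMP response element (TGACGTCA), the CCAAT box (CCAAT) or the TATA box (TATAAA), none of which overlaps another.
Gtf3c1 (chr7:125707689-125707938, minus strand): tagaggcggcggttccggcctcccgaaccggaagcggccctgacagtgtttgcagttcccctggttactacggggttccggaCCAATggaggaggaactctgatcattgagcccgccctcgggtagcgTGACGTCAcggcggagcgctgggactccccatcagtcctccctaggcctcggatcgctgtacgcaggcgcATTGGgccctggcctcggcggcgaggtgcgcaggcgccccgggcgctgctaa
Srcap (chr7:127511733-127511982, plus strand): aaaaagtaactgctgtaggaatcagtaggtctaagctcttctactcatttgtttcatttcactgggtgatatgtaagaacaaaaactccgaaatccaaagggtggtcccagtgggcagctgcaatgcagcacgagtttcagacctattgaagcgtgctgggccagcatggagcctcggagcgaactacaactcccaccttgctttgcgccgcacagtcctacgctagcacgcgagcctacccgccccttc
Dpp8 (chr9:65032208-65032457, plus strand): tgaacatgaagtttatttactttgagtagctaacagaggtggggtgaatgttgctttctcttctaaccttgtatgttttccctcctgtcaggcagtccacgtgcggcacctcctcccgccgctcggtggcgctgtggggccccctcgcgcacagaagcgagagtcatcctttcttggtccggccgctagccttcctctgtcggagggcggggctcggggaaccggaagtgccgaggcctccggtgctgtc
Gtf3c1 encodes the largest subunit of TFIIIC, a factor of RNA polymerase III, and its promoter held 26 CpG sites, CCAAT letters in both orientations and the CRE. Srcap encodes a remodelling ATPase that loads the histone variant H2A.Z, and its promoter matched none of the motifs. Dpp8, a dipeptidyl peptidase, matched none of them either. In the first of these genes the domain began 54 bases before the start site, in the second 728 bases after it and in the third 913 bases before it.

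The shares of the 4 motifs were set beside those in other promoters, with the letters of the NRF1 core set after the promoters had been searched. A promoter was matched for 742 of the 918 genes under domains, as defined below. The NRF1 core stood in 50 of them (6.74%), compared with 3.49% of the promoters of all tested genes and 2.22% of all promoters of the same length. CRE letters stood in 3.37%, compared with 2.93% and 2.12%. CCAAT stood in 35.4%, compared with 37.3% and 36.6%, and TATAAA in 6.33%, compared with 7.0% and 12.1%. The domain genes' promoters had a mean GC content of 60.3% against 58.6% in tested genes and 55.5% in all, and its part in the motif shares was not tested. A match describes letters only, and the absence of one says nothing about a factor.

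Domains ranged from 20008 to 68185 bases, with a median of 25623 and quartiles at 22423 and 31547, and 124 of them reached 40000. Just inside the limit lay the domains over Xrn2 (20008 bases), Oxnad1 (20025) and Smad1 (20029), and just outside it lay shared peaks of 19982, 19979 and 19973 bases. The authors' peak score had a median of 560.8 in the domains and 227 over all PD WT peaks. Every autosome carried domains, from 42 on chromosome 19 to 139 on chromosome 2. Relative to gene number they were densest on chromosome 12, with 11.4 domains per 100 genes, and sparsest on chromosome 7, with 4.79.

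Although 1 shared base sufficed, the domains were nearly all covered in round spermatids. RS WT peaks lay over 94.3% of domain bases, and 1387 domains (93.4%) were at least 90% covered. Cover was complete in 515 domains and under 10% in 28. The RS list had 1 peak over 1108 domains, 2 peaks over 305 and 3 or more over 72. Of the 1921 RS peaks that touched a domain, 1291 were themselves at least 20000 bases wide. The sharing was close to all-or-none: beside the 28 barely touched domains, 465 of the 1950 autosomal PD WT peaks of this width touched no RS peak at all. With 1 peak list per group, a gap in the RS list left by peak calling and an absence of the mark cannot be told apart, here and wherever a peak is described as bare or untouched in RS.

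The share of peaks touched in RS was lower in the wider classes. An RS WT peak touched 676 of 831 PD WT peaks of 20 to 25 kb (81.3%) and 124 of 208 peaks of 40 kb or more (59.6%). The authors' score fell with width too, from a median of 729 in the narrowest shared class to 225 in the widest. RNA levels of the hosts were much alike: hosts of broad peaks with no RS WT peak had a median of 9.38 FPKM in RS WT, and hosts of domains at least 90% covered had 9.0. Hosts of the 28 domains under 10% covered had a median of 13.0.

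**Figure D1:**
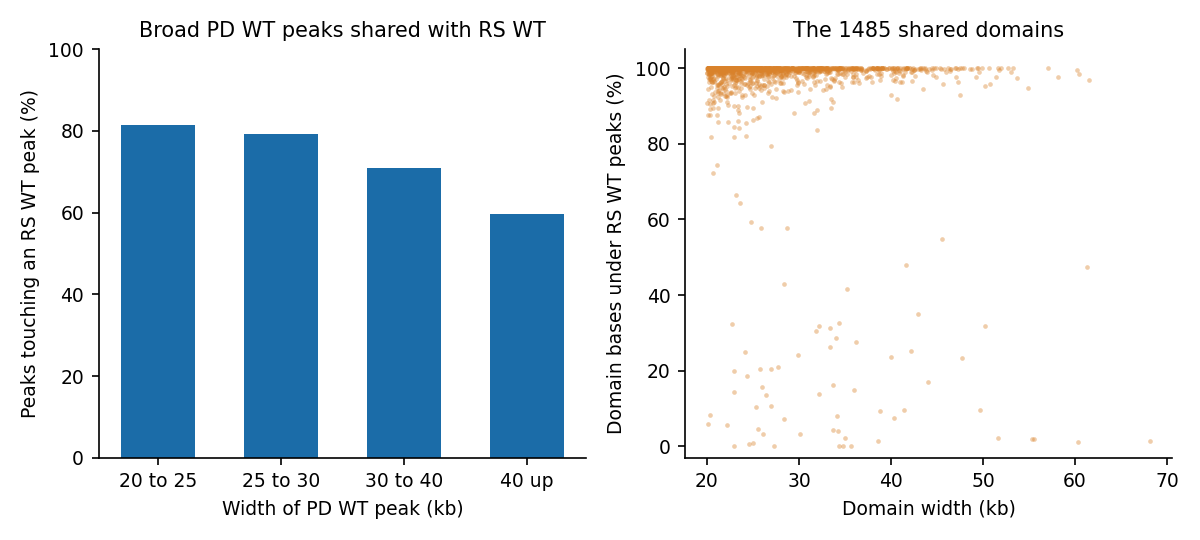
Left, share of autosomal PD WT peaks that touch an RS WT peak (%) by peak width (kb). Right, each of the 1485 domains by its width (kb) and the share of its bases under RS WT peaks (%); 1387 points lie at 90% or more, while the scattered low points reach up to 68185 bases.

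The widest domains held genes of very different levels. The widest of all, over Gtf3c1 (chr7:132783072-132851256, mm9), was 68185 bases, and only 1.38% of it lay under an RS WT peak. FPKM of Gtf3c1 was 36.1 and 37.8 in PD WT, 13.4 and 11.7 in RS WT, 30.2 and 30.5 in PD Setd2KO and 12.5 and 10.8 in RS Setd2KO. It was lower in all RS than in all PD libraries, and its WT change from PD to RS was -1.49 on the log2(FPKM + 1) scale (SE 0.13, limma adjusted p = 7.46e-07).

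Mov10l1, an RNA helicase of piRNA production, lay under a domain of 57109 bases (chr15:88806498-88863606) that was 100% covered in RS WT. Its RNA stood at 30.4 and 28.0 FPKM in PD WT and 2.71 and 3.07 in RS WT. In RS WT its RNA was 2.96 log2 units below that of PD WT (SE 0.12, limma adjusted p = 2.98e-09). The peak list came from a separate library, and 93.4% of all domains were at least 90% covered in RS WT. Kif27, a kinesin, had a domain of 60390 bases and went the other way, from 20.7 and 25.3 FPKM in PD WT to 69.1 and 73.3 in RS WT, a log2 change of 1.60 (SE 0.16, limma adjusted p = 1.84e-06).

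Mroh4 was the most abundant host among the 10 widest, at 211 and 251 FPKM in PD WT and 124 and 128 in RS WT, under a domain of 61570 bases. Srcap was the least abundant, at 7.27 and 5.79 and 1.56 and 1.85 FPKM, under 60169 bases. Both domains were over 95% covered in RS WT, by 96.8% and 99.4%. The other wide domains lay over Urb1, a ribosome assembly factor (61338 bases, 47.5% covered), and Nup188, a nuclear pore protein (58167 bases, 97.7%). Those over the tankyrase Tnks (1.22%), the DNA damage protein Trp53bp1 (1.94%) and the RNA-binding protein Pcbp3 (2.00%) were almost bare in RS WT. RNA of these 3 hosts in RS WT stood at 23.7 and 24.8, 13.8 and 13.2 and 60.0 and 70.0 FPKM, against 22.0 and 21.0, 9.13 and 8.80 and 89.4 and 113 in PD WT. Domains covered 40.7%, 42.3% and 48.3% of these genes, and RS WT peaks of any width covered 57.4%, 9.83% and 52.0%. An almost bare domain thus did not always mean a gene without RS WT peaks. Over Gtf3c1, whose domain was almost bare too, RS WT peaks covered 0% of the gene.

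Domains followed genes. Of the 1485, 1197 touched 1 gene, 221 touched 2, 15 touched 3, 2 touched 4 and 50 touched none. The tables' genes numbered 20626, of which 1523 were touched, 918 had at least 50% of their length covered by domains (called genes under the domains from here on), 441 at least 90% and 119 their whole length. Their median length was 30153 bases against 16141.5 for all genes, and 730 of them were at least 20000 bases long. They made up 4.45% of all genes, 8.33% of autosomal genes of at least 20000 bases and 21.5% of those that also had 5 FPKM or more in PD WT. Most long, transcribed genes were thus less than 50% covered by domains.

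Along the gene the mark usually began after the start site, at varying distance, and in most genes it ended past the gene end. Among 573 genes that were alone under a single domain, the first domain edge lay a median of 964 bases after the start site (quartiles 210 and 8152), and in 86.2% it lay after the start. The last edge lay a median of 1112 bases beyond the gene end, and in 60.0% of genes it lay beyond it. PD WT peaks covered 63.8% of the first twentieth of the gene, up to 99.9% of the middle and 94.9% of the last twentieth. A single domain over at least 50% of a gene always contains its middle, so the PD WT value there followed from the choice. The same shares in RS WT were 71.1%, 96.0% and 90.3%. RS WT peak edges did not choose the genes, but overlap with an RS WT peak chose the domains. Of the domains 93.4% were at least 90% covered in RS WT, so high RS WT cover inside these genes largely followed from that. In the first 2 kb past the gene end cover was still 80.2% in PD WT and 72.9% in RS WT, and before the start it was 32.7% and 37.3%.

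**Figure D2:**
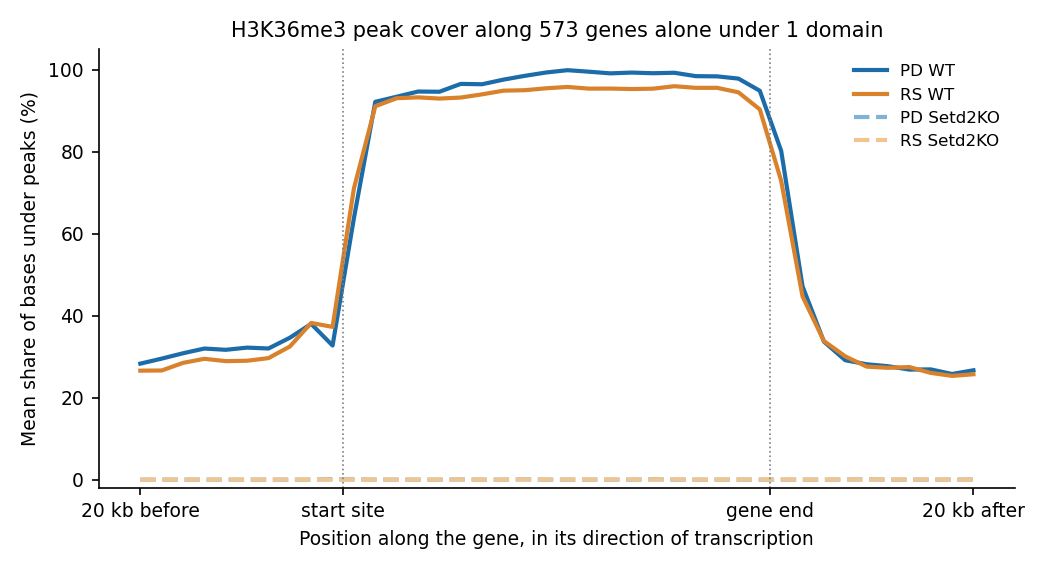
Mean share of bases under H3K36me3 peaks (%) in each of the 4 lists along 573 genes alone under 1 domain, with the gene scaled to equal length and 20 kb on either side drawn in 2 kb steps. PD WT and RS WT rise from 32.7% and 37.3% just before the start site to 99.9% and 96.0% inside the gene, and both Setd2KO lines lie on the axis. PD WT cover of the middle follows from the choice of the genes, and overlap with RS WT peaks chose the domains.

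Long hosts could carry several domains. The 1282 hosts included 131 with 2 or more. Cep128, a centriolar appendage gene, carried 4 with 95667 bases in all, and Ralgps1, an exchange factor for Ral GTPases, carried 4 with 111203 bases. Mean FPKM of Cep128 was 41.9 in PD WT and 34.8 in RS WT, and that of Ralgps1 was 13.0 and 6.76.

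Where a domain touched 2 genes, the genes usually faced each other. They were convergent, ending toward one another, in 187 of 221 such domains (84.6%, exact 95% binomial interval 79.2 to 89.1; intervals here cover counting error only, since 1 list per group gives no replicate error), on the same strand in 19 and divergent in 15. Among all neighbouring pairs of autosomal genes 23.9% were convergent. Convergent pairs made up 80.9% under shared peaks of 10 to 20 kb, 61.1% under narrower shared peaks and 84.5% under broad PD WT peaks that touched no RS peak, so the layout was as frequent where no RS peak was touched. The gap between the convergent gene ends had a median of 835 bases, and in 59 pairs the gene models overlapped. The libraries were directional, but strand use in counting is not given in the sources used here, so reads of overlapping partners may not be told apart.

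Both partners of a convergent pair were usually transcribed in PD WT. Both had at least 1 FPKM in 133 pairs, 1 of them was under 1 FPKM in 54, and no pair had both under it. The higher gene of a pair had a median of 21.5 FPKM and the lower 2.84. In 43 pairs both genes were at least 50% covered.

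The 5 lowest genes under domains were short genes inside a neighbour's domain. Cxcr6, a chemokine receptor, had 0.527 and 0.552 FPKM in PD WT and lay by 84.4% within the domain of Fyco1. Igflr1 lay within the domain of Kmt2b and Igsf6 by 51.3% within that of Mettl9. All 5 were under 1 FPKM in all 8 libraries, so a domain over a gene did not mean that the gene itself was transcribed.

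The domains with most genes showed the same packing. That of Spag5, a spindle and centrosome protein (chr11:78103745-78137185), touched 4 genes including the glycolytic gene Aldoc. That of Becn1, an autophagy gene (chr11:101138267-101162929), touched Wnk4, Coa3 and Cntd1 as well. Spag5 itself stood at 49.0 and 48.8 FPKM in PD WT and 28.1 and 28.9 in RS WT, and Becn1 at 44.9 and 52.4 and 23.3 and 27.4. Domains over the intraflagellar transport genes Ift140 (54908 bases) and Ift172 (47705 bases) and over the kinesin adaptor gene Mapk8ip3 (41009 bases) touched 3 genes each.

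The 50 domains that touched no gene of the tables were about as wide and as fully shared as the rest. Their median width was 24701.5 bases, their median score 740.3 and their median RS WT cover 99.6%, and 15 of them lay within 10 kb of a gene. The widest lay between Tusc1 and Caap1 (chr4:93944584-93993154, 48571 bases). The domain between Ccdc121 and Lbr (chr1:183506601-183549809) was 43209 bases, and RefSeq on GRCm38.p6 lists the dynein heavy chain gene Dnah14 between these neighbours, which the FPKM tables do not carry. The domain between Slc35c1 and Chst1 began 199 bases from Chst1, and that between Brdt and Ephx4 lay 10223 bases from Brdt, the testis bromodomain gene. No RNA value exists for these intervals here.

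The labels' knockout was read first from Setd2 itself. In PD its level was 21.2 and 19.1 FPKM in WT and 21.0 and 21.4 in Setd2KO libraries, and in RS it was 5.24 and 5.58 in WT and 12.1 and 8.67 in Setd2KO libraries. Its total level was therefore not lower in the libraries labelled Setd2KO and in RS was higher (0.81, SE 0.15, limma adjusted p = 0.00162). A value over the whole gene does not show the loss of single exons, and it does not check the label. Setd2 lay outside the domains because the broad PD WT peaks over 99.8% of its length met no RS WT peak.

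Peaks of the mark were all but gone from the domains in Setd2KO cells. Peaks of the PD Setd2KO list touched 10 of 1485 domains (0.673%, exact 95% interval 0.323 to 1.23) and covered 0.0156% of their bases. Those of the RS Setd2KO list touched 58 (3.91%, 2.98 to 5.02) and covered 0.0252%. Per megabase this came to 0.241 and 1.47 peaks in the domains, compared with 0.258 and 1.18 under shared peaks of 10 to 20 kb and 0.354 and 1.36 under narrower shared peaks. In PD the value in the domains lay below both others, in RS slightly above both, and these differences were not tested. Spike-in chromatin was added, but the sources used here give neither its use in the peak lists nor that of the input libraries.

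The few Setd2KO peaks in the domains were short. In PD Setd2KO the longest stretch, of 1145 bases, lay in the domain of Afg3l1, a mitochondrial protease gene, and the next, of 840 bases, in that of Tdrd7, a germ granule gene. The domains of Fam208a, a HUSH silencing complex gene (746 bases), and Ccdc108 (568 bases) followed. In RS Setd2KO the longest stretches were 258 bases in the domain of Hsd17b4, a peroxisomal enzyme, and 253 bases in that of Gpcpd1. RS WT peaks covered only 6 bases (0.0168%) of the Hsd17b4 domain and 10.5% of that of Gpcpd1. The stretch in the Hsd17b4 domain thus lay almost wholly outside RS WT peaks. With at least 200 shared bases required, 10 domains were touched in RS Setd2KO in place of 58.

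As deposited, the median RNA level of the genes under domains was not lower in Setd2KO than in WT libraries. The median level over the 918 genes was 13.8 and 15.5 FPKM in the PD libraries of WT and 16.4 and 16.8 in those of Setd2KO, and 8.5 and 9.0 FPKM in the RS libraries of WT and 9.25 and 9.33 in those of Setd2KO. Both PD Setd2KO libraries lay above both PD WT libraries, and both RS Setd2KO libraries above both RS WT libraries. Over all genes of the tables the medians of group means also lay higher in Setd2KO. They were 0.753 FPKM against 0.479 in WT for PD, and 0.745 against 0.665 for RS. There too both Setd2KO libraries lay above both WT libraries in each cell type. Under other scalings more domain genes were called lower than higher in PD, with the counts given below. The larger step was between cell types. In PD WT 909 of the genes had at least 1 FPKM and 82.8% at least 5, and in RS WT 844 and 64.7% did. Among autosomal genes of at least 20000 bases without such a domain only 48.4% reached 1 FPKM in PD WT, and their median was 0.844 FPKM.

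**Figure D3:**
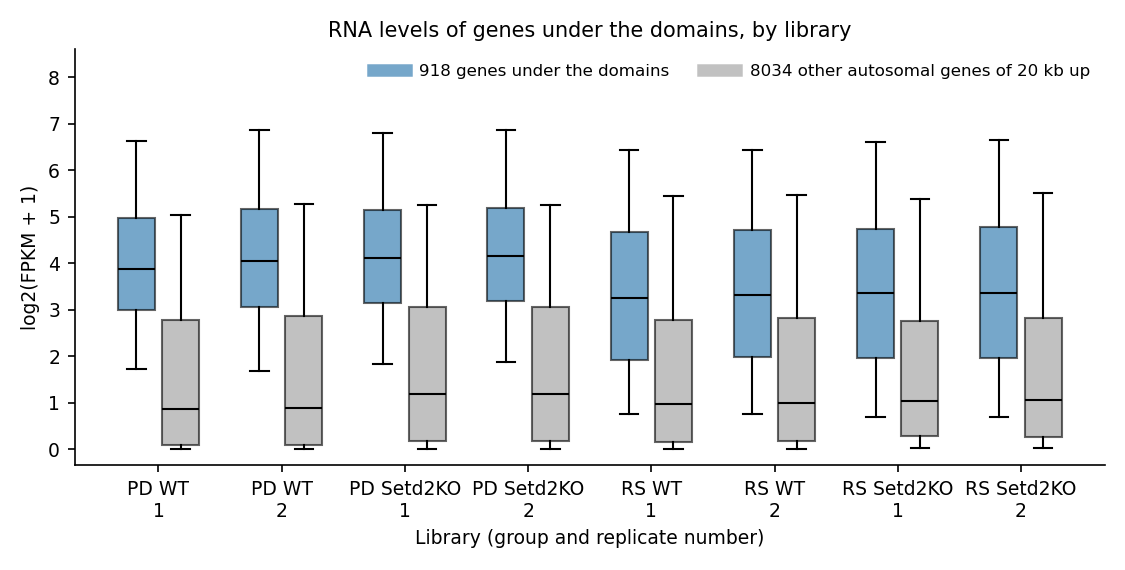
RNA level, log2(FPKM + 1), in each of the 8 libraries for the 918 genes under domains and 8034 other autosomal genes of at least 20000 bases. Boxes span the quartiles with the median as a line, and whiskers run from the 5th to the 95th percentile of genes; medians of the domain genes lie between 13.8 and 16.8 FPKM in PD and between 8.5 and 9.33 FPKM in RS.

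The most abundant domain genes in PD WT were Ldhc, Rsph1, Ybx3, Atp8b3 and Nasp. Ldhc, the testis lactate dehydrogenase, led with 1364 and 1962 FPKM in WT and 1547 and 1471 in Setd2KO libraries of PD, and 1721 and 1540.4 and 1583 and 1575 in those of RS. The spread between the PD WT libraries took in every other value. Ybx3, a germ cell RNA-binding protein, stood at 414 and 542 FPKM in PD WT and 509.7 and 538 in PD Setd2KO, and in RS its Setd2KO libraries (488 and 521) lay above the WT ones (386 and 404) without passing the test (limma adjusted p = 0.131). Atp8b3, a lipid flippase of the acrosome, kept 335 and 364 FPKM in RS WT against 336 and 341 in RS Setd2KO.

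A further pair of genes of this level did change. Rsph1, a radial spoke protein of cilia and flagella, had 568 and 488 FPKM in PD WT and 164 and 227 in RS WT, a log2 change of -1.44 (SE 0.20, limma adjusted p = 2.86e-05). Nasp, a histone chaperone, had 269 and 273 FPKM in PD WT and 164 and 166 in PD Setd2KO, with no overlap, and fell by 0.71 (SE 0.16, limma adjusted p = 0.00536). In RS WT the highest domain genes included Spa17, a flagellar and sperm surface protein, with 434 and 418 FPKM against 135 and 191 in PD WT (1.41, SE 0.19, limma adjusted p = 2.48e-05).

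Width and RNA level showed little relation within the domains. Across 1060 domains with a host at least 50% covered, Spearman's rho between domain width and the host's PD WT FPKM was 0.02, and that between the authors' score and PD WT FPKM was 0.11. By quartile of width the hosts' median was 13.7, 13.7, 14.1 and 15.6 FPKM in PD WT, whereas the median score went from 775.9 in the narrowest to 335.2 in the widest. These points share 1 peak list and 2 libraries and are given as a description.

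Genes were tested with limma on log2(FPKM + 1) over all 11452 genes that reached a mean of 1 FPKM in at least 1 group, and a gene was called at an adjusted p under 0.05. All but 6 of the 918 genes were tested. In PD the effect of Setd2KO on the domain genes was small. Of 912 genes, 147 were higher (16.1%) in a background of 29.8% called higher over all genes, and 45 were lower (4.93%) in a background of 6.3%. The median log2 change was 0.13, against 0.19 over all genes. The share called higher also lay below the 33.1% of long autosomal genes outside the domains, and near the 17.3% of genes under broad PD WT peaks that touched no RS peak and the 19.5% of those under shared peaks of 10 to 20 kb.

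The split in PD depended on the scale. The median tested gene was 0.19 log2 units higher in PD Setd2KO as deposited, 0.10 with upper-quartile scaling and 0.0042 with quantile normalization. With these scalings 86 domain genes were higher and 110 lower, or 78 higher and 133 lower, so the share of calls that were higher went from 76.6% to 43.9% or 37.0%. The share of domain genes called higher stayed under that of all genes, at 9.43% against 22.5% and 8.55% against 13.2%. Without PD Setd2KO library 1, 2 or PD WT library 2, the higher calls numbered 73, 43 and 270. Without PD Setd2KO library 1, 2 or PD WT library 1, the lower calls numbered 18, 27 and 84.

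**Figure D4:**
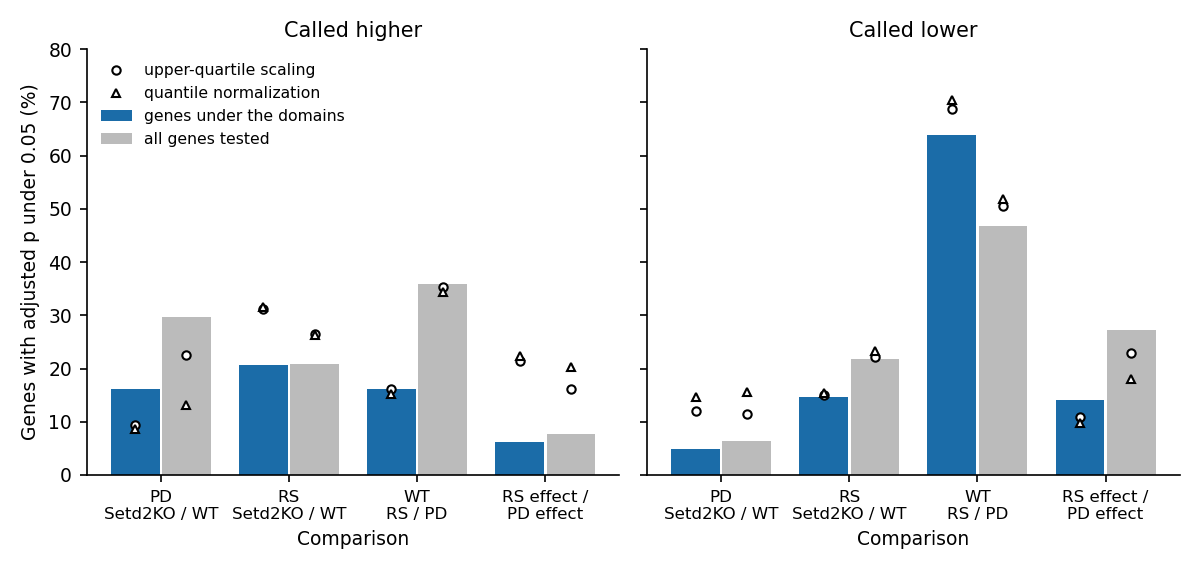
Share of genes (%) called higher (left) or lower (right) at a limma adjusted p under 0.05 in 4 comparisons, for the 912 tested genes under domains (blue bars) and all 11452 tested genes (grey bars), with circles and triangles for upper-quartile scaling and quantile normalization. In WT 63.9% of domain genes and 46.7% of all genes were lower in RS than in PD, and 16.1% and 36% were higher.

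The named rises in PD Setd2KO were those of Ankrd61, Cdc42, Dhx9, Ddx31, Usmg5, Stt3b, Golph3l and Thoc5. Ankrd61 (chr5:144651610-144655936, minus strand, mm9), a short gene inside the domain of Eif2ak1, had 2.21 and 3.29 FPKM in PD WT and 13.2 and 6.73 in PD Setd2KO. The groups did not overlap, and the log2 change was 1.5 (SE 0.25, limma adjusted p = 0.00153), or 1.31 relative to the median of all genes. Its level in RS WT was 93.1 and 101 FPKM, far above every PD library. Cdc42 (chr4:136875611-136913674, minus strand), the small GTPase of actin and polarity, had 9.11 and 10.8 FPKM in PD WT and 19.1 and 21.5 in PD Setd2KO and rose by 0.96 (SE 0.12, limma adjusted p = 4.59e-04). Unlike Ankrd61 it was low in RS WT, at 1.55 and 1.61 FPKM.

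The helicase gene Dhx9 rose from 11.2 and 6.94 to 19.5 and 16.5 FPKM (0.94, SE 0.19, limma adjusted p = 0.00364). Ddx31, a nucleolar helicase, rose from 4.45 and 4.57 to 9.33 and 9.39 FPKM (0.91, SE 0.11, limma adjusted p = 3.35e-04) with close agreement between replicates. Stt3b, a catalytic subunit of oligosaccharyltransferase, rose in both cell types: in PD from 52.9 and 52.8 to 101 and 87.0 FPKM (0.81, SE 0.16, limma adjusted p = 0.00304) and in RS from 50.5 and 64.5 to 94.8 and 94.6 (0.72, SE 0.16, limma adjusted p = 0.00402). Usmg5, a small subunit of ATP synthase, rose by 0.88 and the Golgi gene Golph3l by 0.80, both with separate groups (limma adjusted p = 0.00255 and 8.84e-04). Thoc5, of the THO complex of mRNA export, had 29.9 and 19.5 FPKM in PD WT and 40.3 and 43.2 in PD Setd2KO and rose by 0.76 (SE 0.23, limma adjusted p = 0.0269). That call was lost without PD Setd2KO library 1 (0.0626), PD Setd2KO library 2 (0.0971) or PD WT library 2 (0.177, with a change of 0.47), and under both other scalings (0.102 and 0.0787).

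The named falls in PD Setd2KO ran from -0.75 for Tnpo2 to -1.44 for Scly, where the named rises ran from 0.76 for Thoc5 to 1.5 for Ankrd61. Scly (chr1:93194915-93217657, plus strand), selenocysteine lyase, had 13.6 and 15.3 FPKM in PD WT and 5.64 and 3.87 in PD Setd2KO, a log2 change of -1.44 (SE 0.25, limma adjusted p = 0.00177). Ttbk1, a tau kinase, fell in both cell types, in PD from 12.9 and 13.9 to 4.91 and 5.67 FPKM (-1.20, SE 0.12, limma adjusted p = 1.43e-04) and in RS from 17.5 and 16.5 to 6.99 and 7.70 (-1.11, SE 0.12, limma adjusted p = 5.74e-05). Ccdc36, an organiser of meiotic DNA breaks, fell likewise from 7.40 and 9.18 to 4.29 and 4.66 FPKM in PD (-0.76, SE 0.14, limma adjusted p = 0.00248) and from 4.50 and 5.13 to 2.28 and 1.67 in RS (-0.97, SE 0.14, limma adjusted p = 3.25e-04). In each of these comparisons the WT and Setd2KO libraries stood apart.

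Mrps34, a subunit of the mitochondrial ribosome, lay by 61.4% under the end of the domain of Mapk8ip3. It had 7.90 and 7.13 FPKM in PD WT and 3.27 and 2.90 in PD Setd2KO (-1.06, SE 0.12, limma adjusted p = 2.49e-04), and for RS 4.58 and 3.75 in WT and 0.691 and 0.557 in Setd2KO libraries (-1.66, SE 0.12, limma adjusted p = 3.77e-06). No RS WT peak lay over any part of it. Tnpo2, an import receptor, fell from 18.1 and 24.6 to 11.8 and 12.5 FPKM in PD (-0.75, SE 0.15, limma adjusted p = 0.00393) and had 2.56 to 3.25 FPKM in all RS libraries. Tomm20l, a relative of a mitochondrial import receptor, fell from 17.0 and 27.8 to 12.2 and 10.9 FPKM (-0.86, SE 0.19, limma adjusted p = 0.00645), and without PD WT library 2 its change was -0.53.

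**Figure D5:**
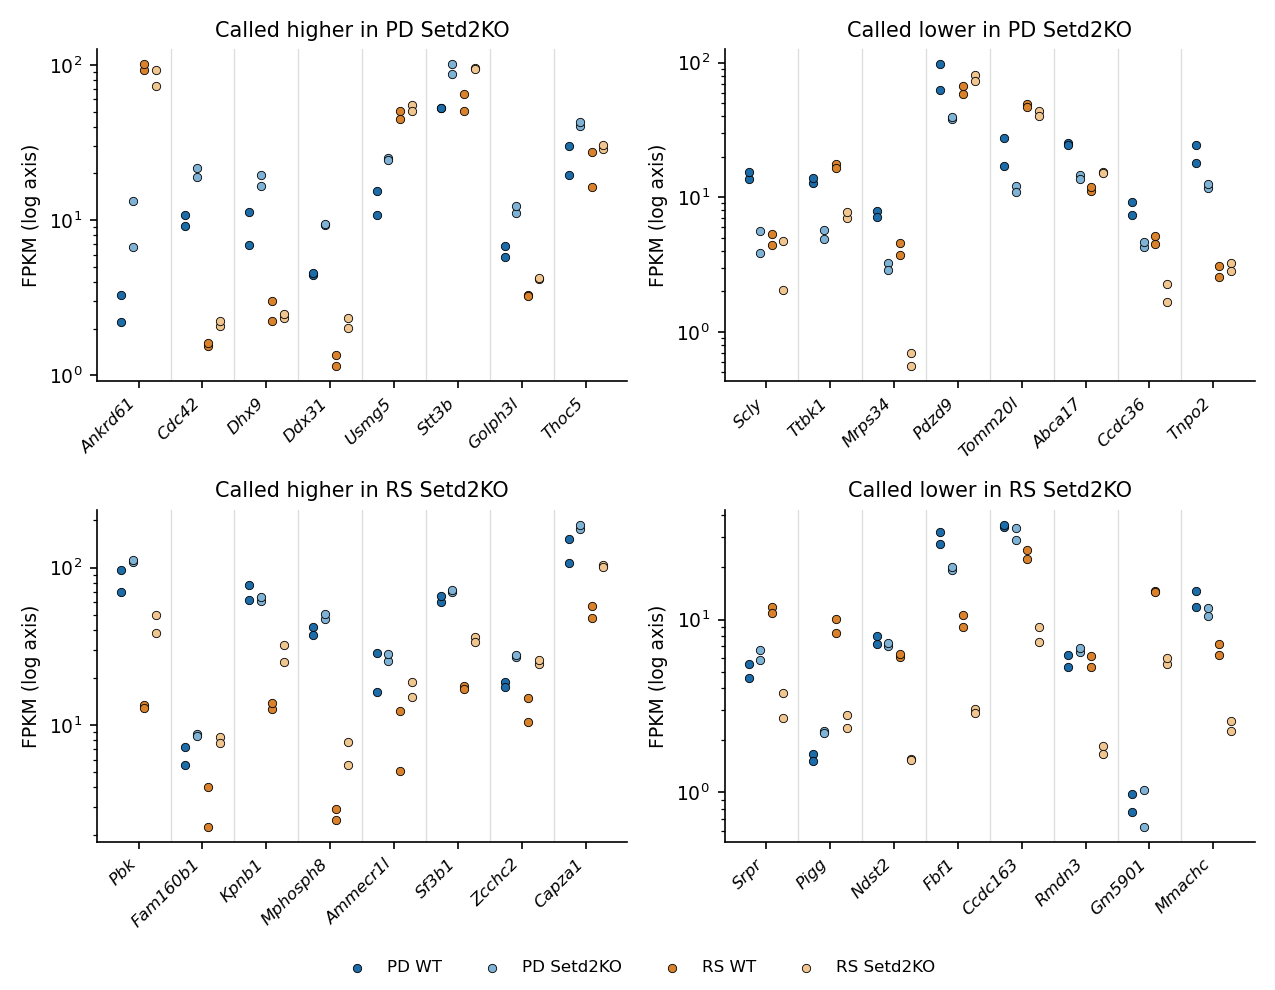
FPKM on a log axis in each library, 2 points per group, for the 8 domain genes with the largest rises and falls by rule in PD Setd2KO (top) and RS Setd2KO (bottom). Within the cell type named above each panel the WT and Setd2KO points do not overlap, which the rule required; Ankrd61 shows the widest span between PD WT (2.21 and 3.29) and RS WT (93.1 and 101).

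The domain genes that were higher in PD Setd2KO were set beside their WT levels in RS. Of the 147, 33 had a higher mean in RS WT than in PD WT (22.4%), near the 25.4% of all tested domain genes. At least 2 times higher there were 18 (12.2%), Ankrd61 among them, against 6.47% of all tested domain genes. Over all tested genes that were higher in PD Setd2KO the shares were 52.4% and 42.6%, and over all tested genes, called or not, 43.9% and 28.3%. The same PD WT libraries entered both comparisons, so choosing genes for a rise from PD WT favoured RS WT above PD WT here. The summed FPKM of 16 markers of round and elongating spermatids was 557 and 658 in PD WT and 699 and 547 in PD Setd2KO, so the sums overlapped, while limma called 10 of the 16 higher and 2 lower. The sum of 11 spermatogonia markers was 8.20 and 8.73 in PD WT and 15.5 and 21.5 in PD Setd2KO, with no marker at 0 in every library, and 4 of the 6 that were tested were called higher. Their part in the result was not tested.

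In RS the Setd2KO effect on the domain genes ran in both directions. Of 912 genes, 189 were higher (20.7%) in a background of 20.9%, and 134 were lower (14.7%) in a background of 21.8%. The median log2 change was 0.11 against 0.02 over all genes. With upper-quartile scaling 285 were higher and 137 lower, and with quantile normalization 287 and 141. The share called higher, close to that of all genes as deposited, then lay above it, at 31.2% against 26.5% and 31.5% against 26.3%, and the share called lower stayed below it, at 15.0% against 22.1% and 15.5% against 23.3%. Leaving out PD WT library 1 or 2, which enter only the shared estimate of the spread, gave 291 higher in either case. Without RS Setd2KO library 1, 2, RS WT library 1 or 2 it was 70, 119, 68 and 120. The lower calls numbered 73 without RS Setd2KO library 1, 76 without RS WT library 1 and 83 without RS WT library 2. Genes under shared peaks of 10 to 20 kb gave 21.4% higher and 17.7% lower, and those under broad PD WT peaks with no RS peak 19.5% and 12.8%.

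Beside these RS values, markers of other stages and cells moved as well. The summed FPKM of the 16 spermatid markers in RS was 7067 and 6967 for WT and 3265 and 3622 for Setd2KO libraries, that of 12 spermatocyte markers 705 and 761.5 against 930.5 and 950.2, and that of 12 Sertoli cell markers 5.60 and 8.13 against 15.8 and 13.8. Sums of 8 peritubular myoid markers were 77.5 and 80.9 against 38.4 and 38.1, and those of 8 Leydig cell markers were 9.65 and 5.20 against 10.8 and 14.8. In RS Setd2KO limma called 8 of 16 spermatid markers lower, 6 of 12 spermatocyte markers higher and 1 lower, all 3 tested Sertoli markers higher, 4 of 5 tested myoid markers higher and 1 lower, and 1 of 3 tested Leydig markers higher. No marker of these lists was at 0 in every library. In bulk RNA, fewer cells of a stage and less RNA per cell cannot be told apart, and the part of the markers in the RS results was not tested.

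The named rises in RS Setd2KO were those of Pbk, Fam160b1, Kpnb1, Mphosph8, Ammecr1l, Sf3b1, Zcchc2 and Capza1. Pbk (chr14:66424748-66436659, plus strand), a mitotic kinase, went from 13.3 and 12.8 FPKM in RS WT to 50.1 and 38.6 in RS Setd2KO, against 69.9 and 96.0 in PD WT. Its RS groups did not overlap, and it rose by 1.68 (SE 0.18, limma adjusted p = 4.21e-05). Kpnb1, importin beta, went from 12.6 and 13.8 to 32.0 and 25.1 FPKM (1.05, SE 0.16, limma adjusted p = 4.83e-04), against 62.1 and 77.0 in PD WT. Mphosph8, a chromodomain protein of the HUSH complex, went from 2.48 and 2.94 to 7.83 and 5.57 FPKM (1.04, SE 0.16, limma adjusted p = 4.55e-04), against 42.1 and 37.0 in PD WT. The RS Setd2KO levels of Pbk, Kpnb1 and Mphosph8 thus stood between those of RS WT and PD WT. So did those of Sf3b1 and Capza1, which had 60.2 and 65.6 and 107 and 152 FPKM in PD WT. Fam160b1 (8.38 and 7.66) and Zcchc2 (24.3 and 25.9) in RS Setd2KO instead stood above PD WT, at 5.53 and 7.21 and 18.6 and 17.3. Ammecr1l in RS Setd2KO overlapped PD WT (16.2 and 28.6).

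Sf3b1, a core spliceosome gene with a domain of 42400 bases, rose from 17.7 and 17.0 to 36.4 and 33.5 FPKM (0.97, SE 0.13, limma adjusted p = 2.10e-04). Capza1, an actin capping protein, rose from 48.1 and 56.6 to 103 and 100.3 FPKM (0.95, SE 0.18, limma adjusted p = 0.00183). Zcchc2 rose in RS by 0.95 and in PD by 0.59 (limma adjusted p = 7.69e-04 and 0.0154), and Fam160b1 rose in RS by 1.16 (limma adjusted p = 6.90e-04). Ammecr1l had 5.09 and 12.3 FPKM in RS WT, a wide spread, and 15.0 and 18.7 in RS Setd2KO (0.98, SE 0.32, limma adjusted p = 0.0315). The call of Ammecr1l was lost without RS Setd2KO library 1 (0.0639), RS Setd2KO library 2 (0.136) or RS WT library 1 (0.325, with a change of 0.41), and without RS WT library 2 the change was 1.54.

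The named falls in RS Setd2KO included those of Srpr, Pigg, Ndst2, Fbf1, Ccdc163, Rmdn3 and Mmachc. Srpr (chr9:35018788-35024588, plus strand), the receptor of the signal recognition particle, had 11.9 and 11.0 FPKM in RS WT against 2.68 and 3.74 in RS Setd2KO, a log2 change of -1.57 (SE 0.15, limma adjusted p = 1.82e-05). Pigg, an enzyme of GPI anchors, went from 10.0 and 8.39 to 2.37 and 2.80 FPKM (-1.51, SE 0.12, limma adjusted p = 6.33e-06). Ndst2, of heparan sulfate synthesis, went from 6.03 and 6.29 to 1.57 and 1.55 FPKM (-1.48, SE 0.11, limma adjusted p = 4.37e-06). None of the 3 was called in PD (limma adjusted p = 0.199, 0.0556 and 0.587), where Srpr had 5.79 and 6.68 FPKM against 5.54 and 4.60 in PD WT, Pigg 2.28 and 2.21 against 1.68 and 1.52, and Ndst2 7.02 and 7.32 against 7.24 and 8.06.

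Fbf1, a protein of centriole distal appendages, fell in both cell types, from 27.3 and 32.0 to 19.3 and 20.2 FPKM in PD (-0.56, SE 0.13, limma adjusted p = 0.00834) and from 10.6 and 9.05 to 3.04 and 2.90 in RS (-1.44, SE 0.13, limma adjusted p = 1.55e-05). Rmdn3, a tether between endoplasmic reticulum and mitochondria, fell in RS from 6.16 and 5.32 to 1.84 and 1.67 FPKM (-1.29, SE 0.12, limma adjusted p = 1.81e-05). Mmachc, of cobalamin metabolism, and its neighbour Ccdc163 lay together under the domain of Prdx1. Mmachc fell by 1.18 and Ccdc163 by 1.43 in RS (limma adjusted p = 6.91e-05 and 3.01e-05), with 25.2 and 22.5 FPKM of Ccdc163 in RS WT against 7.37 and 9.10 in RS Setd2KO.

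Calls in both cell types were compared with those over all tested genes. Of the domain genes, 34 were higher in both, which is 23.1% of those higher in PD and 18.0% of those higher in RS, where the shares over all genes were 27.9% and 39.8%. Lower in both were 19, or 42.2% of those lower in PD and 14.2% of those lower in RS, against 50.1% and 14.4% over all genes. Another 16 were higher in PD and lower in RS (10.9% of those higher in PD, against 16.3% over all genes), and 3 the reverse. No call in either cell type was made for 469 of 912 (51.4%), against 38.0% of all tested genes. The PD and RS comparisons share no library, but they share the estimate of the spread.

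Most domain genes were lower in RS WT than in PD WT. Of 912 genes, 583 were lower in RS WT (63.9%) in a background of 46.7%, and 147 were higher (16.1%) in a background of 36%. The median log2 change was -0.66 against -0.21 over all genes. A change of at least 1 in either direction was seen in 386 genes (42.3%), against 46.7% of all tested genes. Among genes under broad PD WT peaks with no RS peak the shares were 65.0% lower and 15.0% higher, close to those under the domains.

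Genes with the largest falls from PD to RS had RS WT peaks over most of their length. Overlap with RS WT peaks chose the domains, and 93.4% of them were at least 90% covered there. Piwil1 (chr5:129242121-129261349, plus strand), the PIWI protein of pachytene piRNAs, went from 186 and 148 FPKM in PD WT to 6.33 and 7.58 in RS WT (-4.39, SE 0.18, limma adjusted p = 2.98e-09), with RS WT peaks over 100% of the gene. Mgll, monoacylglycerol lipase, went from 55.0 and 60.6 to 2.14 and 2.00 FPKM (-4.26, SE 0.12, limma adjusted p = 1.88e-09). Cers3, the ceramide synthase of very long acyl chains, went from 107 and 112 to 4.80 and 4.99 FPKM (-4.23, SE 0.13, limma adjusted p = 1.88e-09). RS WT peaks covered 94.4% of Mgll and 98.98% of Cers3. Ankrd10 fell by 3.89, the F-box gene Fbxo3 by 3.57 and the cation exporter gene Slc47a2 by 3.46 (limma adjusted p = 1.88e-09, 2.10e-09 and 2.11e-09).

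Rises from PD to RS under domains were fewer than falls, and those of largest fold, named by rule, began from low PD levels, unlike those of Spa17 and Kif27 above. Ankrd61 rose by 4.72 (SE 0.25, limma adjusted p = 1.12e-08). Lpcat2b, a lysophospholipid acyltransferase, rose from 3.91 and 4.75 FPKM in PD WT to 68.2 and 68.7 in RS WT (3.71, SE 0.17, limma adjusted p = 4.73e-09). Zcchc8, of the nuclear exosome targeting complex, rose from 2.67 and 2.76 to 28.5 and 28.1 FPKM (2.98, SE 0.12, limma adjusted p = 3.01e-09), and Tor1aip1, an inner nuclear membrane protein, from 4.55 and 4.66 to 35.9 and 33.0 (2.66, SE 0.14, limma adjusted p = 9.47e-09). Lmntd2 rose by 3.10 and Ccdc186 by 3.03 (limma adjusted p = 2.05e-08 and 1.20e-08). Lpcat2b, Lmntd2, Ccdc186 and Tor1aip1 were lower in RS Setd2KO than in RS WT, at 33.4 and 45.4, 25.5 and 39.5, 24.0 and 28.2 and 19.6 and 24.9 FPKM (limma adjusted p = 0.00359, 6.92e-04, 0.00887 and 0.00480). Ankrd61 and Zcchc8 were not called there (limma adjusted p = 0.477 and 0.0562). Over all tested genes 21.8% were called lower in RS Setd2KO. Both comparisons used the same RS WT libraries, so choosing genes for a large rise to RS WT favoured a fall here.

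The Setd2KO effect differed between the cell types for 185 domain genes. It was higher in RS than in PD for 57 (6.25%) in a background of 7.76%, and lower for 128 (14.0%) in a background of 27.3%, with a median difference of -0.02 against -0.16 over all genes. With upper-quartile scaling the counts became 196 higher and 99 lower, and with quantile normalization 204 and 89, so the share of calls that were higher went from 30.8% to 66.4% or 69.6%. The share of domain genes called higher, below that of all genes as deposited, lay above it under these scalings, at 21.5% against 16.2% and 22.4% against 20.3%. The share called lower stayed below it, at 10.9% against 22.9% and 9.76% against 18.1%. Higher calls numbered 32 and 37 without PD Setd2KO library 1 or 2, 175 without PD WT library 1, 29 without RS Setd2KO library 1 and 32 without RS WT library 1. Lower calls numbered 81 without PD Setd2KO library 2, 80 without RS Setd2KO library 1, and 82 and 85 without RS WT library 1 or 2.

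Fbxo15, an F-box gene, had the largest difference. It had 5.92 and 6.63 FPKM in PD WT and 10.1 and 11.0 in PD Setd2KO, a rise of 0.67 (SE 0.11, limma adjusted p = 0.00144). In RS it went from 3.73 and 3.44 FPKM in WT to 0.402 and 0.344 in Setd2KO, a change of -1.74 (SE 0.11, limma adjusted p = 1.98e-06). Both contrasts had separate groups and opposite directions.

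Genes of the piRNA pathway, the small RNA system that silences transposons in germ cells, had 5 of 20 members under domains, among them Piwil1, Mov10l1, Piwil2 and Tdrd7. From PD to RS 4 of the 5 fell, as did 16 of the 19 tested members of the whole list and 46.7% of all tested genes, and Tdrd7 rose (55.5 and 71.8 FPKM in PD WT, 102 and 96.1 in RS WT, 0.64, SE 0.16, limma adjusted p = 0.00256). Piwil2 went from 64.8 and 71.5 to 5.77 and 6.11 FPKM (-3.32, SE 0.14, limma adjusted p = 3.67e-09). In PD Setd2KO 2 of 5 rose, beside 6 of 19 in the whole list and 29.8% of all genes. They were Piwil2, which rose to 90.8 and 102 FPKM (0.49, SE 0.14, limma adjusted p = 0.0223), and Mov10l1, which rose to 37.7 and 39.7 (0.40, SE 0.12, limma adjusted p = 0.0271). In RS Setd2KO none of the 5 was called by limma, and 0 had an unadjusted p under 0.05, where 7 of the 19 rose. These and the following lists were chosen with results of these data known.

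Centrosome and cilium genes, which build the basal body and the flagellar axoneme, had 18 of 75 members under domains. In PD Setd2KO 3 of the 18 rose and none fell, and in RS Setd2KO 4 rose and none fell (limma; at an unadjusted p under 0.05, 4 and 6 were higher and 0 lower), with medians of 0.17 and 0.13 against 0.19 and 0.02 over all genes. Over all genes 29.8% rose and 6.3% fell in PD, and 20.9% rose and 21.8% fell in RS. Of the 73 tested members of the whole list 11 rose and 2 fell in PD, and 13 rose and 9 fell in RS. From PD to RS 9 of the 18 fell and 3 rose, beside 35 and 18 of the 73 and 46.7% and 36% of all genes. Ift140 had 133 and 166 FPKM in PD WT and 69.8 and 72.7 in RS WT (-1.05, SE 0.15, limma adjusted p = 5.23e-05). Ift122 and Cep72 had 63.3 and 78.8 and 47.9 and 61.9 FPKM in PD WT, and neither was called in PD or RS Setd2KO.

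Of 70 genes of DNA repair and meiotic recombination 4 lay under domains, and all 4 fell from PD to RS, as did 48 of the 68 tested members of the whole list and 46.7% of all genes. Sycp2, of the synaptonemal complex axis, went from 108 and 116 to 21.8 and 17.9 FPKM (-2.44, SE 0.14, limma adjusted p = 2.40e-08), and the meiotic cohesin gene Stag3 from 116 and 139 to 80.3 and 80.1 (-0.66, SE 0.15, limma adjusted p = 0.00158). In RS Setd2KO 2 of the 4 rose, where 20.9% of all genes did, with a median of 0.52 over the 4. The whole list had 12 higher and 13 lower and a median of 0.01. Rif1, a replication timing and break repair gene, had 9.50 and 8.29 FPKM in RS WT against 19.3 and 15.4 in RS Setd2KO (0.89, SE 0.15, limma adjusted p = 6.94e-04), and the remodelling helicase gene Hells 1.49 and 1.62 and 3.78 and 3.13 (0.80, SE 0.13, limma adjusted p = 5.06e-04).

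Vesicle traffic genes had 8 of 75 members under domains, and ubiquitin ligase genes 6 of 56. In RS Setd2KO 3 of the 8 vesicle traffic genes rose and 1 fell, beside 21 and 10 of the 70 tested members of the whole list and 20.9% and 21.8% of all genes. Cog6, of the conserved oligomeric Golgi complex, rose from 58.5 and 53.6 to 93.7 and 96.1 FPKM (0.75, SE 0.15, limma adjusted p = 0.00266), while Cog4 had 20.2 and 22.5 and 28.0 and 28.7 (limma adjusted p = 0.0617). Of the 6 ligase genes 4 rose and none fell in RS Setd2KO (0 lower at an unadjusted p under 0.05 in limma), with a median of 0.45 against 0.02 over all genes. The whole ligase list went both ways, with 11 of 53 tested members higher and 8 lower and a median of 0.06. The cullin gene Cul3 went from 40.4 and 42.9 to 55.0 and 61.7 FPKM (0.48, SE 0.16, limma adjusted p = 0.0330), Trim33 from 7.34 and 8.26 to 12.3 and 11.9 (0.58, SE 0.14, limma adjusted p = 0.00705) and Ube3c from 11.9 and 16.5 to 21.6 and 21.4 (0.58, SE 0.15, limma adjusted p = 0.010). From PD to RS 6 of the 8 and 4 of the 6 fell, and none rose (0 at an unadjusted p under 0.05 in limma). In the whole lists 50 of 70 and 32 of 53 fell, and 9 and 8 rose. Over all genes 46.7% fell and 36% rose.

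Of 32 genes that write, erase or read H3K36 methylation, 5 lay under domains, and none of them was called by limma in PD or RS Setd2KO. At an unadjusted p under 0.05, 1 was higher in PD, and 2 were higher and 1 lower in RS. Of the 28 tested members of the whole list 8 rose and 2 fell in PD, and 4 rose and 4 fell in RS. Over all genes 29.8% rose and 6.3% fell in PD, and 20.9% rose and 21.8% fell in RS. Morf4l1, whose protein reads the mark, had 167 and 122 FPKM in PD WT and 222 and 205 in PD Setd2KO without overlap (0.57, SE 0.23, limma adjusted p = 0.0770). Psip1, another reader, had 141 and 164 FPKM in PD WT and 42.7 and 44.6 in RS WT (-1.78, SE 0.16, limma adjusted p = 8.30e-07). The demethylase gene Kdm2b and the elongation factor gene Iws1 had 13.5 and 13.9 and 7.29 and 8.0 FPKM in PD WT.

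Of 39 listed genes of sperm packaging, acrosome and flagellum 4 lay under domains, and of the 16 spermatid markers 0 were touched. From PD to RS none of the 4 was called by limma and 0 had an unadjusted p under 0.05, where 31 of the 39 listed genes rose. Ldhc is described above. Catsper2, of the sperm calcium channel, had 57.8 and 60.8 FPKM in PD WT and 64.2 and 85.3 in RS WT. Brdt had 61.1 and 68.0 FPKM in PD WT and 88.4 and 88.4 in PD Setd2KO, with separate groups, and rose by 0.45 (SE 0.14, limma adjusted p = 0.0280). Agfg1, needed for acrosome formation, had 16.3 and 20.1 FPKM in PD WT and 15.9 and 16.6 in RS WT. Over the whole list of 39 the RS Setd2KO effect had a median of -0.45 with 14 falls, while 0 of the 4 under domains was called, and 0 had an unadjusted p under 0.05 in limma.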

How the data were processed

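RNA values are FPKM as the authors deposited them. Per the submitters' processing notes they came from CASAVA, TopHat2, Cufflinks and Cuffdiff on build mm9, with no versions given. Peak lists carry the authors' peak score, whose lowest value in the deposited lists is 50, and CASAVA, Bowtie and bedtools are named for them in those notes. The inputs were not analysed here. Depth, worked back from the smallest FPKM steps, was 50.8 to 84.9 megareads per library, and FPKM of 1 read per kilobase was 0.0118 to 0.0197.

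File coordinates count from 0, and starts are printed counting from 1. Overlaps needed 1 shared base, and a gene was under domains at 50% cover. Genes with a mean of 1 FPKM in at least 1 of 4 groups were fitted as log2(FPKM + 1) with limma 3.58.1 in R 4.3.3, with 1 mean per group, an intensity trend, 4 residual and 6.92 prior degrees of freedom and Benjamini-Hochberg adjustment over 11452 genes. Fold changes on this scale understate those of low genes. The fit was tested on simulated data. Intervals differed between tables for 32 genes under domains, among them Ammecr1l, Psip1, Kdm2b and Tor1aip1.

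Genes were named by rule: Setd2, hosts of the 10 widest domains, the 5 highest and 5 lowest genes, up to 8 rises and 8 falls per comparison (adjusted p under 0.05, libraries not overlapping, at least 5 FPKM in the higher group), 4 per direction for the difference between effects, and up to 4 list members by level. Genes known by clone or model number kept their rank and are not printed. A few genes that the rule names are not reported here. Members and lists were chosen with earlier results of these data known. The letters of the NRF1 core were set after the promoters had been searched. Other lists were markers of spermatogonia (1 of 11 under domains), spermatocytes (2 of 12), Sertoli (0 of 12), Leydig (1 of 8) and peritubular myoid cells (1 of 8), and of macrophages, blood and endothelium (0 of 11). Alternatives were other scalings, pseudocounts, filters, widths and overlaps, a replicate block and each library left out.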

Additional observations from a re-analysis of the deposited data

Results flagged for a closer look

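The Setd2KO effect differed between RS and PD, by limma's test of the difference itself, for the 8 genes under domains with the largest such differences by rule. In 4 of them the effect was lower in RS: the difference was -2.40 log2 units for Fbxo15 (SE 0.16, limma adjusted p = 3.91e-05), -1.83 for Pigg (SE 0.17, limma adjusted p = 1.04e-04), -1.82 for Srpr (SE 0.21, limma adjusted p = 2.75e-04) and -1.73 for Ankrd61 (SE 0.36, limma adjusted p = 0.00382). Fbxo15 rose in PD and fell in RS, Pigg and Srpr fell in RS and were not called in PD, and Ankrd61 rose in PD and was not called in RS. In the other 4 the effect was higher in RS: 1.28 for Pdzd9 (SE 0.27, limma adjusted p = 0.00468), 1.26 for Pbk (SE 0.25, limma adjusted p = 0.00333), 1.17 for Kpnb1 (SE 0.23, limma adjusted p = 0.00295) and 1.16 for the ABC transporter gene Abca17 (SE 0.17, limma adjusted p = 8.13e-04). FPKM of Pdzd9 in PD was 62.9 and 97.2 in WT and 37.9 and 39.4 in Setd2KO libraries, and in RS it was 58.8 and 67.5 and 81.1 and 72.8. FPKM of Abca17 in PD was 25.3 and 24.4 in WT and 14.7 and 13.6 in Setd2KO libraries, a fall, and in RS it was 11.0 and 11.9 and 15.4 and 15.2, a rise. With a pseudocount of 0.1 FPKM the difference for Fbxo15 was -3.70.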

How the results depend on the processing

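Shares of the tested domain genes called moved with the scale and with single libraries. In PD the share higher was 9.43% with upper-quartile scaling and 8.55% with quantile normalization, and the share lower 12.1% and 14.6%. In RS the share higher was 31.2% and 31.5%, and for the difference between effects it was 21.5% and 22.4%. Leaving out each library in turn gave 4.71% to 29.6% higher and 1.97% to 9.22% lower in PD, 7.46% to 31.9% and 8.0% to 17.8% in RS, 13.0% to 20.5% and 59.3% to 68.8% from PD to RS, and 3.18% to 19.2% and 8.77% to 19.4% for the difference, where a group left with 1 library is assumed to vary like the others. Setd2KO peaks touched 1.59% of domains in PD at a width of at least 30000 and, in RS, 2.86% at 15000 and 0.673% with 200 shared bases. RS WT cover was 91.2% at 30000 and 98.6% with at least 50% of each domain covered. The replicate block gave 15.7% higher and 4.82% lower in PD and 19.3% and 14.1% in RS and changed no call of a named gene. Replicate numbers do not pair samples, with correlations of same-numbered deviations from -0.31 to 0.07 between groups. A crossed block, chosen after seeing the data, called 3766 genes higher and 789 lower in PD and 2591 and 2736 in RS. For named genes 830 alternatives kept call and direction, 10 lost the call (those of Thoc5, Ammecr1l), and 0 turned direction. Thoc5 was at an adjusted p of 0.0828 and Ammecr1l at 0.0886 with no filter. With 2 libraries and 1 peak list per group, small differences and single peaks stay below what these data resolve.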
